A study of Mus musculus with 18 samples.

Results

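The 10 genes Ryr2, Atp2a2, Pln, Casq2, Slc8a1, Cacna1c, Cacnb2, Camk2d, Trdn, and Hrc carry the calcium cycle of the heart muscle cell, and they were chosen by name, 10 of the 34989 genes to which the deposited values could be summed. Hearts of C57B/L6 mice, 12 weeks old by the labels, were flushed with HTK, a cold preservation solution, and kept in it on ice for 0, 4, or 8 h. Every heart, those of the 0 h group included, was then perfused ex vivo with Krebs buffer for 1 h before LV and RV were frozen, so that the 0 h hearts were also isolated, flushed, and reperfused. RNA was sequenced from 3 LV and 3 RV libraries at each storage time, 18 libraries in all. The labels give no sex, and the study's methods name both sexes. The labels do not state that libraries of a group came from separate animals, and the p-values measure the spread between these libraries.

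In each beat, calcium enters the cell through the L-type channel, whose pore is Cacna1c and whose accessory subunit is Cacnb2. This calcium opens the ryanodine receptor Ryr2, which releases the store of the sarcoplasmic reticulum, where Casq2 binds calcium and Trdn and Hrc tie the store to the release channel and the pump. The pump Atp2a2, restrained by Pln, takes calcium back up, the exchanger Slc8a1 expels it for sodium, and the kinase Camk2d phosphorylates several of these proteins.

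The sequences shown here are coding stretches in which transcripts of these genes differ, since the deposited values were given per transcript, and promoters. The promoters lie before the starts of transcripts and did not enter the deposited values. The coding stretches were read from the GENCODE M21 transcripts on build GRCm38. Both main Atp2a2 transcripts share the stretch in lower case and diverge after it (chromosome 5, minus strand). Capitals mark the 11 coding bases of the last exon of Atp2a2-202, at 122454294 to 122454304, and the first 30 of the 149 coding bases that follow in Atp2a2-201, at 122457273 to 122457302. Their products are the cardiac pump SERCA2a and the ubiquitous SERCA2b.
Atp2a2-202: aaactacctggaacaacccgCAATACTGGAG
Atp2a2-201: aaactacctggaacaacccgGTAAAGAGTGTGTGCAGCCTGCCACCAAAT

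Casq2-205 begins 131 bases downstream of the main transcript Casq2-201 and holds a coding exon of 9 bases that Casq2-201 lacks, at 102133090 to 102133098 of chromosome 3 on the plus strand, shown in capitals between 15 bases of the neighbouring exons.
Casq2-205: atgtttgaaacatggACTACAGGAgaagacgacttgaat

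Camk2d transcripts differ in which of 3 cassette exons they hold, all on the plus strand of chromosome 3 and shown whole. The exon of 33 bases lies at 126802937 to 126802969 and encodes the nuclear localization signal of the delta B form. That of 60 bases lies at 126805857 to 126805916 and that of 42 bases at 126808208 to 126808249.
Camk2d 33-base exon: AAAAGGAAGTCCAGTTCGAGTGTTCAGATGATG
Camk2d 60-base exon: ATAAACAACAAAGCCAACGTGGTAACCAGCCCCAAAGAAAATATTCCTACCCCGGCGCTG
Camk2d 42-base exon: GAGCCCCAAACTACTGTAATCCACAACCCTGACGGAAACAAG

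The RefSeq promoter table (GRCm38.p6) held 11 windows for 8 of the 10 genes, of which the 250 bases before the start were searched on both strands for the E-box CANNTG, the letters AGATAA bound by GATA factors, the letters TATAAA of the TATA box, the GC box GGGCGG, and the core letters TAAAAATA bound by MEF2. Matches are in capitals below, and no match of a motif overlapped one of another. Cacnb2 has a GC-rich window (73.2% G or C) at chr2:14604056-14604305, directly before Cacnb2-203, and a window of 46.0% at chr2:14823842-14824091, directly before Cacnb2-214. The first held 1 E-box and 1 GC box and the second held 4 E-boxes.
Cacnb2, first start: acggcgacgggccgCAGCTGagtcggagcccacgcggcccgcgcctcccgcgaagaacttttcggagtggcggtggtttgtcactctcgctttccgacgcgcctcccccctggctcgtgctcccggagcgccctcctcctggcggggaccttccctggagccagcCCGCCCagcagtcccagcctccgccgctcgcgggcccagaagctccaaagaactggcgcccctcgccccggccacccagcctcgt
Cacnb2, second start: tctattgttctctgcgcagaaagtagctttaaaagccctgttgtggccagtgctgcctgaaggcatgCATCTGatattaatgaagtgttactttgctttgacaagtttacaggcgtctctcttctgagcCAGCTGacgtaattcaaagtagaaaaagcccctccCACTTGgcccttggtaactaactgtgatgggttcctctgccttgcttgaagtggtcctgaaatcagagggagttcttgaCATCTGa

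The MEF2 letters were found in 2 of the 11 windows, against 2.5% of all 32851 promoters. They stand in the windows of Casq2 (chr3:102086165-102086414, plus strand) and Slc8a1 (chr17:81738388-81738637, minus strand), which are shown for that reason.
Casq2: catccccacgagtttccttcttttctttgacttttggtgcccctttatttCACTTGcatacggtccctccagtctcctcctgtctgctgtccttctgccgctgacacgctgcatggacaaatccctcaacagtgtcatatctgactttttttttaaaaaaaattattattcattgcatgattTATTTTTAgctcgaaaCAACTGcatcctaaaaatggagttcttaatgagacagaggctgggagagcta
Slc8a1: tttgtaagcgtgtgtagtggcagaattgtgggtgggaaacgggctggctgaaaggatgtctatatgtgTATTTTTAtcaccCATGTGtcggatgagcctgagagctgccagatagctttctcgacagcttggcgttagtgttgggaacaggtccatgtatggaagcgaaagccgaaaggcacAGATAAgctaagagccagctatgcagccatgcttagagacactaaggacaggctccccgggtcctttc

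An E-box was found in 10 of the 11 windows, against 66.2% of all promoters, a GC box in 4 against 32.7%, AGATAA in 2 against 10.0%, and TATAAA in 1, that of Pln, against 12.4%. These are matches of letters, and the libraries hold no measurement of binding.

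The libraries held 22552581 to 46236771 estimated counts, of which 22.7% to 34.4% fell on mitochondrial genes. This share was 24.1% to 28.3% at 0 h and 31.98% to 34.4% at 8 h in LV, and 22.7% to 32.6% and 33.3% to 34.2% in RV, without overlap in either ventricle, and its part in the results at 8 h was not tested beyond a fit without the mitochondrially encoded genes, in which Cacna1c was again the 1 gene called in LV and 0 were called in RV. Markers of ventricular muscle were high in every library, with a summed level of the 10 sarcomere genes between 36233 and 82224 CPM (counts scaled to the library total and between libraries by TMM). The atrial marker Myl7 was at most 82.8 CPM and the skeletal genes Myh1, Myh4, and Actn3 were under 1 CPM in every library. The skeletal list also held Acta1 and Ckm, and its sum lay between 1231 CPM (RV, 8 h) and 2663 CPM (LV, 8 h). The sum of the atrial list reached 800 CPM in RV at 8 h. A pair of libraries stood apart before any test, number 3 of 8 h in LV and in RV. On the first principal component of 8112 genes (62.2% of the variance) they had loadings of -0.37 and -0.54, against -0.22 to 0.31 for the other 16. The log2 fold changes of the 10 genes at 8 h against 0 h are therefore given with and without them.

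By TPM, which corrects for transcript length, the pump and its regulator were by far the most abundant of the 10 genes. Atp2a2 had a mean of 3720.0 TPM over the 18 libraries and ranked 25 of 34989 genes, and Pln had 2367 TPM and ranked 30. The storage proteins followed, with 467 TPM for Hrc, 288 TPM for Casq2, and 216 TPM for Trdn. Ryr2 had 156 TPM. The genes of entry, extrusion, and the kinase were lowest, at 54.0 TPM for Cacna1c, 39.3 TPM for Camk2d, 37.3 TPM for Slc8a1, and 21.5 TPM for Cacnb2. Over libraries, Camk2d and Slc8a1 were not separable in this order.

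**Figure D1:**
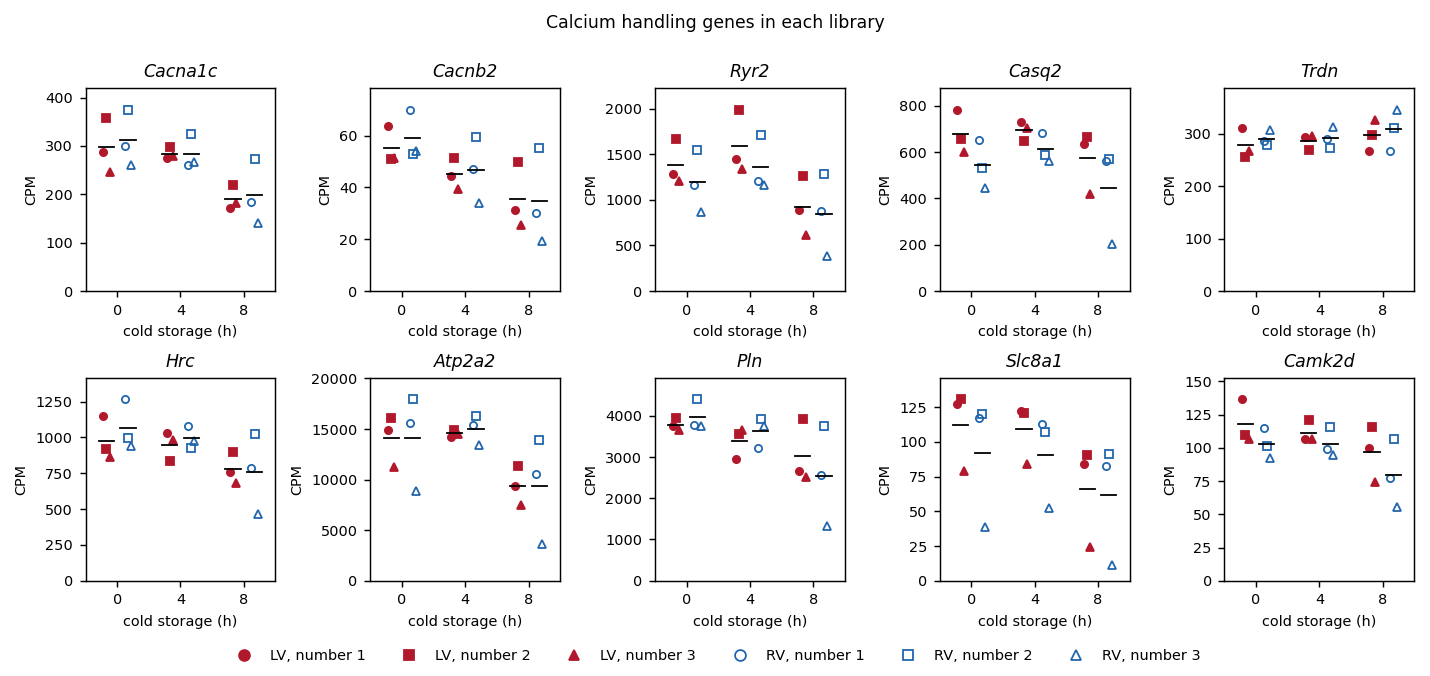
Level of each gene (CPM, TMM scaled, axis from 0) in each of the 18 libraries by hours of cold storage. Filled red symbols are LV and open blue symbols RV, the symbol gives the library number, and the black line is the mean of 3. Most genes lie lower at 8 h, and RV number 3 of 8 h is the lowest library for 9 of the 10 genes.

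The first comparison asked whether storage for 4 h changed these genes. None of the 10 changed in LV or in RV at an adjusted p under 0.1 (edgeR quasi-likelihood test, Benjamini-Hochberg adjustment), where 2.98% of 14564 genes did in LV and 10.9% of 14646 in RV. None of the 10 had an unadjusted p under 0.05 in either ventricle, and DESeq2 also called 0. The median log2 fold change of the 10 was -0.04 in LV and 0.01 in RV. Cacnb2 had the lowest value in both, at -0.29 ± 0.23 (SE, adjusted p = 0.609) in LV and -0.32 ± 0.34 (adjusted p = 0.717) in RV, with 3 libraries a group in the edgeR fit.

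After 8 h, most of the 10 genes stood lower than at 0 h, and Cacna1c in LV was the one that passed the test. In LV, 1 of the 10 fell and 0 rose, where 2.34% of all genes fell and 8.44% changed in either direction, and 9 of the 10 had a log2 fold change below 0, where 51.7% of all genes did. The median of the 10 was -0.45, against -0.02 over all genes. In RV 0 of the 10 passed the test in edgeR, where 7.17% of all genes fell and 21.1% changed, 1 of them had an unadjusted p under 0.05, and DESeq2 called 1. Again 9 of the 10 were below 0, where 55.0% of all genes were, with a median of -0.54 against -0.07. Without number 3 of 8 h the median of the 10 was -0.31 in LV, with 9 of 10 below 0, and -0.18 in RV, with 8 of 10 below 0, where the median over all genes in RV was -0.03. In bulk ventricle, fewer heart muscle cells and less RNA per cell cannot be told apart.

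**Figure D2:**
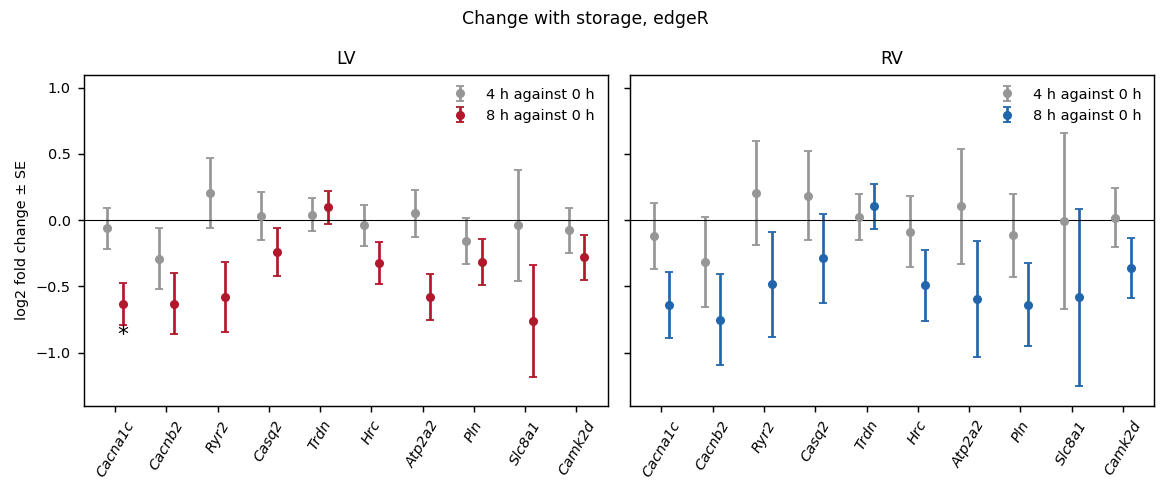
Log2 fold change of each gene ± SE (derived from the edgeR test, 3 libraries a group) for 4 h (grey) and 8 h (coloured) against 0 h, in LV at left and RV at right. The star marks the adjusted p of 0.0617 of Cacna1c in LV, the one call under 0.1, and Trdn is the one gene above 0 at 8 h in both ventricles.

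Cacna1c, the pore of the L-type channel (chromosome 6, 118587240 to 119196418, minus strand), had 287, 357, and 246 CPM in the LV libraries of 0 h and 172, 219, and 182 CPM in those of 8 h. All 3 libraries of 8 h lay under all 3 of 0 h. The log2 fold change was -0.63 ± 0.16 (SE, adjusted p = 0.0617 in edgeR, n = 3 and 3), past a fold change of 1.5. The call was lost without LV 8 h number 3 (-0.61, adjusted p = 0.147), LV 8 h number 1 (-0.56, 0.147), LV 0 h number 1 (-0.66, 0.118), or LV 0 h number 2 (-0.48, 0.233), and the value stayed between -0.75 and -0.48 over the 9 fits that left out 1 library.

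In RV, Cacna1c had 301, 375, and 261 CPM at 0 h and 184, 272, and 141 CPM at 8 h. The groups overlapped in number 2 of 8 h. The log2 fold change was -0.64 ± 0.25 (edgeR, adjusted p = 0.121), and with the library number as a block Cacna1c fell (-0.67, edgeR adjusted p = 0.0273). Without RV 8 h number 3 the values were -0.45 (adjusted p = 0.281) in the plain fit and -0.54 (adjusted p = 0.048) with the block. In the fit with the block 2 of the 10 genes fell in RV, where 14.5% of all genes did.

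Cacnb2, the beta subunit that carries the channel to the membrane, had 63.6, 50.9, and 51.3 CPM in LV at 0 h and 31.4, 49.8, and 25.6 CPM at 8 h. The 8 h libraries lay lower, number 2 by about 1 CPM. The log2 fold change was -0.63 ± 0.23 (edgeR, adjusted p = 0.151), and -0.46 (adjusted p = 0.34) without LV 8 h number 3. Cacna1c and Cacnb2 were the 2 of 10 genes whose LV groups did not overlap, where 12.8% of all genes lay lower without overlap.

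In RV, Cacnb2 had 70.0, 52.9, and 54.0 CPM at 0 h and 30.05, 55.3, and 19.5 CPM at 8 h. Number 2 of 8 h lay within the 0 h range and the others far under it. The log2 fold change was -0.75 ± 0.34 (edgeR, adjusted p = 0.172), and Cacnb2 fell with the block (-0.87, edgeR adjusted p = 0.0534). Without RV 8 h number 3 the values were -0.46 (adjusted p = 0.41) in the plain fit and -0.65 (adjusted p = 0.194) with the block.

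Ryr2, the release channel, had 1280.4, 1671, and 1201 CPM in LV at 0 h and 893, 1263, and 613 CPM at 8 h. Number 2 was the highest of each group, and the groups overlapped through it. The log2 fold change was -0.58 ± 0.27 (edgeR, adjusted p = 0.224), and -0.37 (adjusted p = 0.473) without LV 8 h number 3. In RV the libraries had 1162, 1548, and 863 CPM at 0 h and 882, 1288, and 381 CPM at 8 h, with a log2 fold change of -0.48 ± 0.40 (edgeR, adjusted p = 0.406), and -0.13 (adjusted p = 0.838) without RV 8 h number 3. At 4 h Ryr2 had its highest group means, 1591 CPM in LV and 1358 CPM in RV.

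Atp2a2, the pump, had 14873, 16121, and 11220 CPM in LV at 0 h and 9354, 11308, and 7537 CPM at 8 h. One pair overlapped, number 3 of 0 h and number 2 of 8 h, which differed by under 100 CPM. The log2 fold change was -0.58 ± 0.18 (edgeR, adjusted p = 0.103), and -0.45 (adjusted p = 0.248) without LV 8 h number 3. In RV the spread was wider, with 15564, 17924, and 8913 CPM at 0 h and 10586, 13903, and 3595 CPM at 8 h, and the log2 fold change was -0.60 ± 0.44 (edgeR, adjusted p = 0.358). Without RV 8 h number 3 it was -0.20 (adjusted p = 0.727).

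Pln, the inhibitor of the pump, lay between 3665 and 3945 CPM in LV at 0 h and between 2519 and 3921 CPM at 8 h. Its log2 fold change was -0.32 ± 0.18 (edgeR, adjusted p = 0.307), and -0.21 (adjusted p = 0.6) without LV 8 h number 3. In RV Pln ranged from 3744 to 4396 CPM at 0 h and from 1333 to 3743 CPM at 8 h, the 1 of 10 genes whose RV groups did not overlap, where 16.6% of all genes lay lower without overlap. The gap between the RV groups was under 1 CPM, and the log2 fold change was -0.64 ± 0.32 (edgeR, adjusted p = 0.2), and -0.32 (adjusted p = 0.381) without RV 8 h number 3.

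Slc8a1, the sodium-calcium exchanger, had 127, 131, and 79.4 CPM in LV at 0 h and 84.3, 90.4, and 24.1 CPM at 8 h. In RV it had 117, 120.0, and 38.8 CPM at 0 h and 82.4, 91.7, and 11.6 CPM at 8 h. Number 3 was the lowest library in all 6 groups, those of 4 h included. The log2 fold changes were -0.76 ± 0.43 in LV (edgeR, adjusted p = 0.31) and -0.58 ± 0.67 in RV (edgeR, adjusted p = 0.553). Slc8a1 had the widest spread of the 10 genes, 11.3-fold from its highest to its lowest library. Without number 3 of 8 h the value was -0.38 in LV and -0.08 in RV.

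Of the store proteins Casq2, Hrc, and Trdn, none was called in the plain fit of 8 h against 0 h in either ventricle. Casq2, the calcium buffer of the store, had 783, 655, and 602 CPM in LV at 0 h and 637, 665, and 419 CPM at 8 h, with a log2 fold change of -0.24 ± 0.18 (edgeR, adjusted p = 0.443), or -0.07 without LV 8 h number 3. In RV it had 651, 533, and 447 CPM at 0 h and 563, 569, and 205 CPM at 8 h, and the value of -0.29 ± 0.34 (edgeR, adjusted p = 0.56) became 0.06 without RV 8 h number 3. Hrc, the histidine-rich protein of the store, ranged from 865 to 1153 CPM in LV at 0 h and from 681 to 901 CPM at 8 h (-0.32 ± 0.16, edgeR adjusted p = 0.255). In RV it had a log2 fold change of -0.49 ± 0.27 (edgeR, adjusted p = 0.234). The values of Hrc without number 3 of 8 h were -0.25 (edgeR, adjusted p = 0.506) in LV and -0.23 (adjusted p = 0.507) in RV.

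Trdn, which anchors Casq2 to the release channel, was the one of the 10 genes with a value above 0 at 8 h. It had 311, 256, and 268 CPM in LV at 0 h and 267, 298, and 326 CPM at 8 h, and in RV 285, 278, and 307 CPM at 0 h and 268, 312, and 346 CPM at 8 h. The groups overlapped in both ventricles, and the log2 fold changes were 0.10 ± 0.13 (edgeR, adjusted p = 0.656) and 0.10 ± 0.17 (edgeR, adjusted p = 0.685). They were 0.014 in LV and 0.0032 in RV without number 3 of 8 h. Trdn also varied least, 1.35-fold from its highest library, RV 8 h number 3, to its lowest. Camk2d, the kinase, ranged from 107 to 136 CPM in LV at 0 h and from 74.3 to 116 CPM at 8 h (-0.28 ± 0.17, edgeR adjusted p = 0.349), and its RV value was -0.36 ± 0.22 (edgeR, adjusted p = 0.286). Camk2d had -0.13 in LV and -0.16 in RV without number 3 of 8 h.

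Between 4 and 8 h the difference was of the same size as that between 0 and 8 h for several genes, and none of the 10 passed the test. The call rate over all genes was 0% in LV and 0% in RV, and 3 of the 10 in LV and 0 in RV had an unadjusted p under 0.05. In LV, Ryr2 had a log2 difference of -0.79 ± 0.27 (edgeR, adjusted p = 0.556), Atp2a2 of -0.63 ± 0.18 (adjusted p = 0.551), and Cacna1c of -0.57 ± 0.16 (adjusted p = 0.551). DESeq2 called Cacna1c (adjusted p = 0.0625) and Atp2a2 (adjusted p = 0.0583) in LV and none in RV. The shares of all genes with an unadjusted p under 0.05 or a DESeq2 call are not given here. These counts are therefore not read as particular to the 10 genes.

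LV and RV were compared at each storage time in 1 fit of all 18 libraries. None of the 10 genes differed, where 0.159%, 0.0133%, and 0.0331% of 15093 genes did at 0, 4, and 8 h, none had an unadjusted p under 0.05, and DESeq2 called 0. When the LV and RV libraries of the same time and number were taken as 1 heart, Casq2 (log2 difference 0.48 ± 0.15, edgeR adjusted p = 0.0362) and Camk2d (0.30 ± 0.07, edgeR adjusted p = 0.0136) were higher in LV at 8 h, 2 of 10 where 15.5% of all genes were higher. Without number 3 of 8 h the values in that fit were 0.20 (adjusted p = 0.0874) for Casq2 and 0.25 (adjusted p = 0.0325) for Camk2d, and Cacna1c was lower in LV (-0.20, adjusted p = 0.0956). The share of all genes called without number 3 is not given, and these calls are not read as particular to the 10 genes. Casq2 and Camk2d were higher in LV in 9 of 9 same-numbered pairs over all storage times, where 4.61% of all genes were. Ryr2 and Slc8a1 were higher in 8 of 9, a count for which the share of all genes is not given. Neither was called at any storage time when same-numbered libraries were taken as 1 heart.

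Whether the change with storage differed between ventricles was tested as an interaction. None of the 10 genes passed at 4 or at 8 h, with or without the heart as a block, none had an unadjusted p under 0.05 in the plain fit, and DESeq2 called 0. Over all genes the plain fit called 0% and 0%, and the fit with the block called 0.325% at 4 h and 11.6% at 8 h. At 8 h the LV change minus the RV change ranged from -0.19 ± 0.88 for Slc8a1 to 0.32 ± 0.38 for Pln on the log2 scale, and for Cacna1c it was 0.01 ± 0.31 (edgeR, adjusted p = 1 for each).

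Over the 18 libraries the levels of 9 of the 10 genes were positively correlated with one another. The Pearson r of log2 CPM, given as a description over libraries that share storage, ventricle, and number, was highest between Ryr2 and Atp2a2 (0.931), between Atp2a2 and Slc8a1 (0.92), and between Casq2 and Slc8a1 (0.911), and its lowest value among these 9 was 0.59, between Cacna1c and Casq2. Trdn had a negative r with each of the other 9, from -0.29 with Hrc to -0.71 with Slc8a1. RV 8 h number 3 was the lowest library for each of these 9 genes and the highest for Trdn. The r between pairs of all genes is not given, so these values are not read as particular to the 10 genes.

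**Figure D3:**
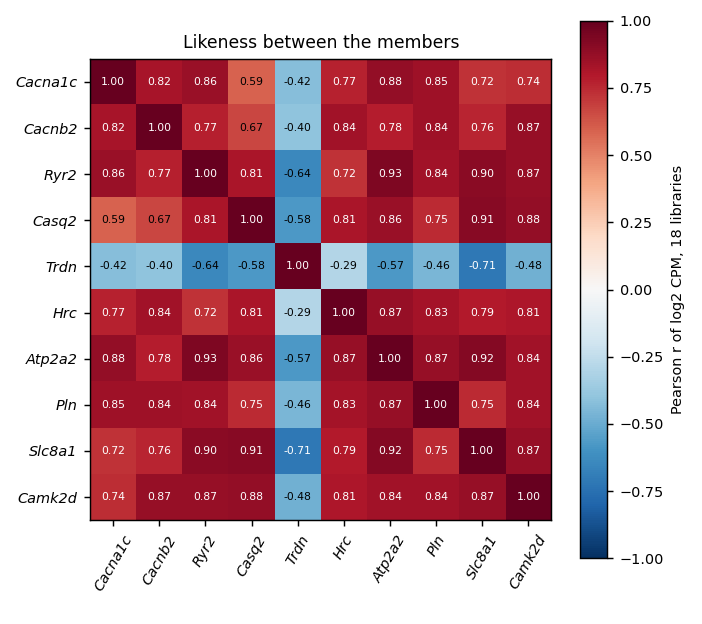
Pearson r of log2 CPM over the 18 libraries for each pair of the 10 genes, from -1 (blue) to 1 (red). The row and column of Trdn are blue, with values from -0.71 to -0.29, and all other pairs are red, from 0.59 up.

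The library number went with the level of several genes in all groups. Ryr2, Cacna1c, and Atp2a2 were highest in number 2 in 6 of 6 groups, and Ryr2 and Slc8a1 were lowest in number 3 in 6 of 6. A measure over all genes moved with it, the median log2 deviation of the longest 20% of 8112 genes (effective length over 4148 bases) minus that of the shortest 20% (under 1321 bases). It was highest in number 2 in 6 of 6 groups, at 0.30 and 0.31 in LV and RV at 0 h, where the other libraries of these groups lay between -0.19 and 0.04. It also differed with storage in LV, at 0.04, 0.30, and -0.03 in numbers 1, 2, and 3 at 0 h and -0.25, 0.0017, and -0.29 at 8 h, lower at 8 h in each number. In RV it was -0.03, 0.31, and -0.19 at 0 h and -0.14, 0.14, and -0.0040 at 8 h. There it was lower at 8 h in numbers 1 and 2 and higher in number 3. The leading transcripts of Ryr2 and Cacna1c, 16814 and 13162 bases, are the longest of the 10 genes, and the part of transcript length in the result was not tested beyond the offsets for it. With these offsets Cacna1c had a log2 fold change of -0.45 (edgeR, adjusted p = 0.111) in LV and of -0.53 (adjusted p = 0.0914) in RV.

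Ratios within a library do not depend on the scaling between libraries. For 6 pairs of the 10 genes and for each gene over the summed sarcomere genes, the 6 stored libraries were compared with the 3 of 0 h in each ventricle by an exact two-sided permutation test on log2 ratios of TPM, 32 tests in all. None passed with the libraries of 4 and 8 h pooled, and the lowest adjusted p was 0.81 (exact permutation test). In LV, Cacnb2 over the sarcomere genes differed most, by -0.61 (exact permutation p = 0.167, n = 6 and 3), followed by Slc8a1 at -0.50 (exact permutation p = 0.381). Pln over Atp2a2, the ratio of the inhibitor to the pump, differed by -0.01 in LV (exact permutation p = 0.929) and by -0.10 in RV (exact permutation p = 0.786). The mean log2 ratio of Pln to Atp2a2 was -0.61, -0.80, and -0.45 in LV and -0.51, -0.76, and -0.48 in RV at 0, 4, and 8 h, lowest at 4 h in both. The libraries of 8 h alone, which were not tested and are named after their values were seen, lay apart from those of 0 h in LV for the ratio of Casq2 to Ryr2 (1.51 to 2.25 at 0 h and 2.41 to 3.05 at 8 h), of Trdn to Ryr2 (0.911 to 1.48 and 1.72 to 3.91), and, lower at 8 h, for Cacna1c and Cacnb2 over the sarcomere genes (mean log2 ratio -9.99 and -10.44 for Cacna1c, and -11.19 and -12.11 for Cacnb2). The LV gap for Cacnb2 was narrow, from 0.0003745 (0 h number 3) to 0.0003706 (8 h number 2). In RV the 0 h and 8 h libraries overlapped for each of these ratios. They had 1.115 to 2.404 at 0 h and 1.515 to 2.175 at 8 h for Casq2 to Ryr2, and 0.858 to 2.564 and 1.352 to 5.007 for Trdn to Ryr2. For the sarcomere genes the median at 8 h was -0.10 (log2) in LV, where Myh6 was the 1 of 10 that fell, and -0.28 in RV, where 0 of 10 passed in edgeR and 0 had an unadjusted p under 0.05.

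On average over the 18 libraries, the leading transcript took 89.7% to 99.9% of the counts of Hrc, Slc8a1, Casq2, and Pln. It took 82.7% for Ryr2, 66.7% for Cacnb2, 57.8% for Camk2d, and 40.1% for Cacna1c. The pump was mainly SERCA2a. Atp2a2-202, whose last coding bases are shown above, took 76.1% to 89.3% of the estimated counts of the gene. Atp2a2-201, that of SERCA2b, took 18.2%, 20.3%, and 11.7% in LV at 0 h, 20.9%, 21.4%, and 14.1% at 4 h, and 12.8%, 13.9%, and 4.57% at 8 h. In RV it took 22.1%, 21.4%, and 6.9% at 0 h, 19.3%, 21.6%, and 10.0% at 4 h, and 14.7%, 19.0%, and 1.48% at 8 h. Number 3 held the lowest share in every group, and the storage times overlapped in both ventricles.

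Casq2-205, with the exon of 9 bases, took 25.7% of the Casq2 counts in LV 8 h number 3 and 53.4% in RV 8 h number 3. In each of the other 16 libraries it took at most 0.85%. Cacnb2 showed a difference in the same 2 libraries, where Cacnb2-214, which starts at the second promoter shown, was at 0 estimated counts. In the other libraries Cacnb2-214 took 5.68% to 24.8%, lower in number 3 than in its group mates at 0 and 4 h, and Cacnb2-203 from the first start took 50.4% to 81.4%, against 85.1% and 84.4% in number 3 of 8 h in LV and RV. The files give no error of the assignment of reads to transcripts, and the values of single libraries have no replicate at 8 h.

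**Figure D4:**
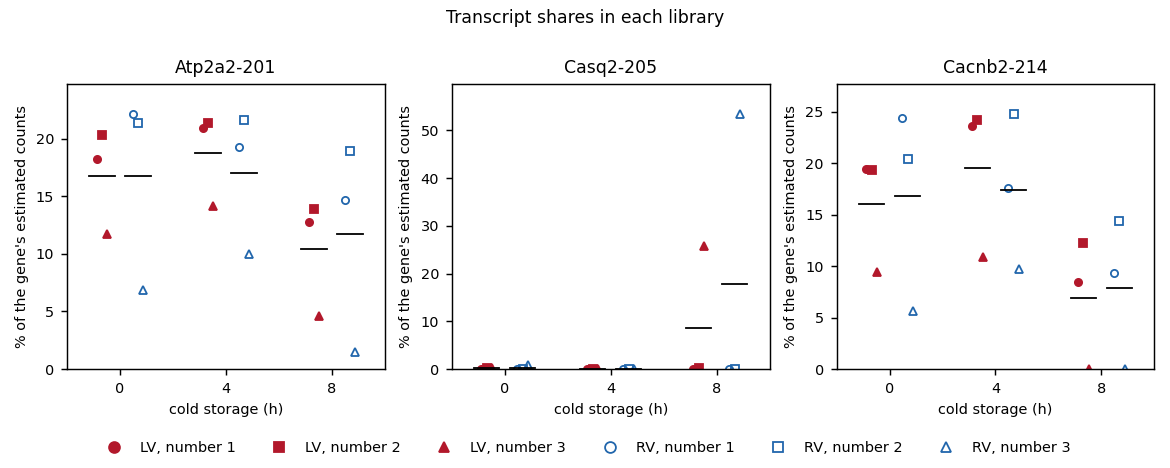
Share of the estimated counts of its gene (%, axis from 0) on Atp2a2-201, Casq2-205, and Cacnb2-214 in each library by hours of storage, with symbols for the library number and black lines for the mean of 3. In number 3 of 8 h (triangles) Casq2-205 stands at 25.7% and 53.4%, while Atp2a2-201 stands at 4.57% and 1.48% and Cacnb2-214 at 0%.

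Camk2d was divided by its cassette exons. Transcripts with the exon of 42 bases alone took 45.8% to 67.2% of its counts, those with the exons of 60 and 42 bases 10.3% to 35.6%, and those with that of 33 bases 1.21% to 9.71%. Transcripts with none of the 3 took 26.8% in LV 8 h number 3 and 30.1% in RV 8 h number 3, against 8.98% to 16.8% elsewhere. Trdn was the most divided gene, with 5 transcripts above 10% on average and 24.9% on the leading one. The share of the leading transcript was tested for each gene in each ventricle, stored against 0 h, and none of the 20 tests passed (lowest adjusted p 0.976 in the exact permutation test).

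Of 104 other genes of calcium handling, listed with earlier results of these data known, 100 were tested in LV and 99 in RV at 8 h. In LV 5 rose and 4 fell, where 6.1% and 2.34% of all genes did, and in RV 7 rose and 5 fell, where 13.9% and 7.17% did. The same rule applied with the library number as a block gave 13 that rose and 15 that fell in RV, where 18.5% and 14.5% of all genes did. Without number 3 of 8 h the counts were 0 and 1 in LV, where 2.5% and 0.664% of all genes rose and fell and Camk2a was the gene left, and 7 and 3 in RV, where 9.68% and 2.98% did. The 4 genes that rose in LV with a fold change over 1.5 then had values of 1.22 for Gem (edgeR, adjusted p = 0.203), 1.16 for Orai2 (0.112), 0.94 for Pde4b (0.118), and 0.72 for Atp2b4 (0.113). In RV the calls of Adrb1 (-0.38, adjusted p = 0.136) and Cacnb1 (-0.56, adjusted p = 0.133) were then lost. With all libraries, called in both ventricles were 4 genes that rose and 2 that fell.

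Brakes and subunits of the channel held the largest change. Gem, a small GTPase that inhibits the L-type channel, had 46.6, 24.8, and 13.8 CPM in LV at 0 h and 69.3, 63.9, and 127 CPM at 8 h, and in RV 39.1, 18.3, and 11.6 CPM at 0 h and 143, 113, and 192 CPM at 8 h. Every library of 8 h was above every one of 0 h. Gem rose by 1.61 ± 0.42 (log2, edgeR adjusted p = 0.0719) in LV and by 2.72 ± 0.43 (edgeR adjusted p = 0.00546) in RV. Rem1, of the same GTPase family, fell in RV (-1.17 ± 0.25, edgeR adjusted p = 0.0167), at 5.88 to 7.21 CPM at 0 h and 2.27 to 3.84 CPM at 8 h, as did Cacnb1 (-0.55). The T-type channel Cacna1g fell in LV (-0.69 ± 0.15, edgeR adjusted p = 0.0474).

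Among kinases, phosphodiesterases, and receptors, 1 of 28 rose and 2 fell in LV, and 3 rose and 2 fell in RV. Pde4b, which degrades cyclic AMP, had 52.2 to 75.0 CPM in LV at 0 h and 125 to 185 CPM at 8 h, and 46.1 to 63.9 CPM and 220.2 to 346 CPM in RV. It rose by 1.15 ± 0.25 (edgeR adjusted p = 0.0435) and by 2.29 ± 0.25 (edgeR adjusted p = 0.00135). Rcan1, an inhibitor and target of calcineurin, rose in RV by 1.75 ± 0.39 (edgeR adjusted p = 0.0187), and its LV value was 0.43 ± 0.36 (adjusted p = 0.494). The adenylyl cyclase Adcy6 fell in both (-0.56 and -0.77), the receptor Adrb1 fell in RV (-0.59), Camk2a fell in LV (-0.57), and Calm2, which encodes calmodulin, rose in RV (0.53).

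In store-operated entry, Orai2 was the 1 of 7 that passed, and it rose in both, from 1.28 to 2.69 CPM at 0 h to 3.9 to 5.74 CPM at 8 h in LV (1.33 ± 0.28, edgeR adjusted p = 0.0391) and by 1.83 ± 0.26 (edgeR adjusted p = 0.00374) in RV. In extrusion, the plasma membrane pump Atp2b4 was the 1 of 10 that passed, and it rose by 1.18 ± 0.30 in LV (edgeR adjusted p = 0.0652) and 1.53 ± 0.35 in RV (edgeR adjusted p = 0.0209). It was highest in number 3 of 8 h in both ventricles, at 97.5 and 129 CPM. The calcineurin-dependent factor Nfatc4 fell in both (-0.96 and -0.75) and Nfatc1 rose in RV (1.13 ± 0.18, edgeR adjusted p = 0.00578).

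The groups nearest to the 10 genes in function were mostly below the threshold. Of 9 junction genes in LV and 8 in RV, and of 11 mitochondrial calcium genes in each, 0 passed in edgeR, and of 14 store and pump partners Sri rose in LV (0.40 ± 0.12, edgeR adjusted p = 0.094) and 0 passed in RV. In these groups 0 of 9 and 1 of 8 junction genes, 0 and 0 mitochondrial genes, and 1 and 2 partners had an unadjusted p under 0.05. Median log2 fold changes at 8 h were -0.11 and -0.08 for the junction, -0.16 and -0.31 for mitochondrial calcium, and 0.14 and 0.30 for the partners, in LV and RV.

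**Figure D5:**
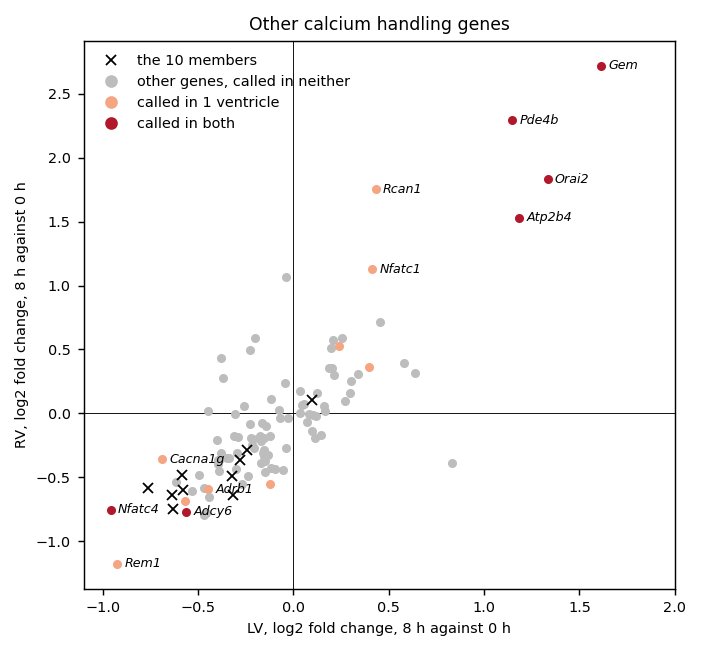
Log2 fold change at 8 h against 0 h in LV (horizontal) and RV (vertical), each against its own 0 h libraries, for the other calcium handling genes (dots, coloured by the number of ventricles in which the adjusted p was under 0.1) and the 10 genes (crosses). Named are those called with a fold change over 1.5, with Gem at 1.61 and 2.72, and 9 of the 10 crosses lie in the lower left.

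At 4 h, 3 of 100 of these genes in LV, where 2.98% of all genes changed, and 10 of 99 in RV, where 10.9% did, had already passed the test. In LV Orai2 (1.53) and Pde4b (1.30) rose and Nfatc4 (-1.09) fell, and in RV 6 rose, among them Gem (1.98), Rcan1 (1.69), and Rrad (1.17), another brake of the channel, and 4 fell, Rem1 (-0.89), Adrb1 (-0.79), Nfatc4 (-0.99), and Itpr3 (-0.65). Rrad was not called in LV, where it had 578, 616, and 482 CPM at 0 h and also lay higher at 4 h, at 1116, 636, and 1446 CPM. At 8 h its LV libraries were split, at 250, 262, and 942 CPM. The genes of 4 h were named after their values were seen.

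Markers of other cells were measured beside these results. The summed level of 6 fibroblast markers was 747 to 827 CPM in LV at 0 h and 882 to 1362 CPM at 8 h, and 834 to 940 CPM and 978 to 1804 CPM in RV, with Tcf21 the 1 of 6 called in RV and none in LV. The 6 macrophage and leukocyte markers summed to 82.0 to 113 CPM and 98.3 to 142 CPM in LV, where Ptprc rose, and to 93.7 to 132 CPM and 112 to 225 CPM in RV, where 4 of 6 rose. The 4 atrial markers summed to 127 to 296 CPM and 263 to 357 CPM in LV and to 111 to 374 CPM and 119 to 800 CPM in RV, and none was called. The 4 red cell genes summed to 4.51 to 6.14 CPM and 11.8 to 194 CPM in LV, where Hbb-bs and Hbb-bt rose, and to 2.4 to 5.88 CPM and 3.96 to 52.0 CPM in RV. Of 6 endothelial markers 0 were called in either ventricle in edgeR, with 1 and 2 at an unadjusted p under 0.05, and of 5 smooth muscle and pericyte markers Pdgfrb fell in RV. These lists were above 0 in every library, and their part in the lower values of the 10 genes was not tested. The sarcomere sum was 68677 to 82224 CPM and 52958 to 62968 CPM in LV, and 69929 to 80126 CPM and 36233 to 66432 CPM in RV, at 0 and 8 h.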

How the data were processed

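The 18 libraries were grouped by ventricle and storage time from their titles. The authors deposited, for each library, estimated counts per transcript from kallisto with the GRCm38 reference, not normalized between libraries, and TPM values, which sum to the same total in each library. Transcript lengths and effective lengths stood beside them. The estimated counts of all transcripts of a gene were summed with GENCODE M21, which is on the same build and matched 110203 of 111462 transcripts. The rest, at most 0.38% of the counts of a library, were left out. The sums were rounded to whole numbers. Reads shared by similar transcripts were divided by the estimation, so that shares of transcripts, and counts of Calm2 and other genes with close copies, carry an error that their depth does not show. The kit was directional, but kallisto was run by the study's methods with its defaults, which set no strand option, so that reads of a gene and of an overlapping antisense gene cannot be told apart.

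Low genes were removed by filterByExpr and libraries scaled by TMM. The test was the quasi-likelihood F-test in edgeR 4.0.16 (R 4.3.3) with Benjamini-Hochberg adjustment over all genes tested. A gene rose or fell at an adjusted p under 0.1. Storage was tested in the 9 libraries of a ventricle, and LV against RV and the interaction in all 18. SE was derived from the test statistic. Ratios of TPM and transcript shares were tested with exact two-sided permutation tests in scipy 1.17.1. The functions were tested on simulated data. DESeq2 1.42.0, other scaling and filters, length offsets, the replicate block, and each library left out in turn were alternatives.

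The members and lists were chosen with earlier results of these data known. All 10 genes are named, and of the other genes those called at 8 h in either ventricle that differed by more than 1.5-fold, at most 12. Others are named where a count was small, after their values were seen. Of the 104 listed, Strit1 was not among the summed genes. Whether LV and RV libraries of the same time and number stand for 1 heart is not in the labels. Libraries of different storage times cannot, since each heart was stored for a single time before its tissue was taken. What the number stands for between storage times is not known, and the block there rests on the number alone. Deviations of same-numbered libraries from their group means correlated by more than 0.1 in all 3 pairs for LV against RV at each time (0.284 to 0.668) and for RV 8 h and 4 h against 0 h (0.107 to 0.27), and likewise for 8 h against 4 h, and not for LV 4 h or 8 h against 0 h (-0.0156 to 0.25). Blocked values therefore stand beside the RV and LV against RV results where they changed a call. The range of total counts limits the precision of genes at a few CPM, and estimated counts are not independent molecules. The labels and the paper differ in the age of the mice and in how the strain is written, the label's form being used, and neither entered any calculation. One gene among those most like the members is not reported here.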

Additional observations from a re-analysis of the deposited data

Results flagged for a closer look

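None of the 10 genes passed the test of a difference between ventricles in the change with storage. Of the 100 other calcium handling genes tested, 1 had a positive and 10 had a negative difference called at 8 h, where 11.6% of all genes were called in either direction, and 1 was called at 4 h, where 0.325% were. This was in the fit that took the LV and RV libraries of the same time and number as 1 heart. Among the 11 other named genes 5 passed in that fit, and not in the plain fit of 18 libraries, where each had an adjusted p of 1. The LV change from 0 to 8 h minus the RV change was -1.14 ± 0.14 on the log2 scale for Gem (edgeR, adjusted p = 0.00134), -1.28 ± 0.15 for Rcan1 (edgeR, adjusted p = 0.00132), -1.13 ± 0.18 for Pde4b (edgeR, adjusted p = 0.00394), -0.71 ± 0.15 for Nfatc1 (edgeR, adjusted p = 0.0195), and -0.31 ± 0.10 for Atp2b4 (edgeR, adjusted p = 0.0976). For Rcan1 the difference was also called from 0 to 4 h, at -0.97 ± 0.15 (edgeR, adjusted p = 0.0632). In each of these 5 the RV change was the more positive. The 11 genes had been named for a call at 8 h against 0 h in either ventricle of these same libraries. That choice favours a difference between ventricles, so the 5 of 11 is not read against the share of all genes.

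Without number 3 of 8 h in both ventricles the values in that fit were -1.25 for Gem, -1.29 for Rcan1, -1.31 for Pde4b, and -0.82 for Nfatc1, each with an adjusted p under 0.1, and Atp2b4 was not called. In that fit 15 of the 100 other genes were called, all with a negative difference, where 9.52% of all genes had a negative and 4.96% a positive one called. Of these 15, Rrad had the largest difference (-1.77, edgeR adjusted p = 0.000437). At 8 h numbers 1 and 2 had 250 and 262 CPM of Rrad in LV and 868 and 570 CPM in RV. Number 3, left out here, went the other way, with 942 CPM in LV and 579 CPM in RV. The value for Rrad therefore rests on leaving that pair out, a choice made after the data were seen. Among the 15 were also Nfatc2 (-0.79, edgeR adjusted p = 0.00688), Orai2 (-0.71, edgeR adjusted p = 0.0513), Cacna1g (-0.54, edgeR adjusted p = 0.0369), and Hspa5 (-0.47, edgeR adjusted p = 0.0145). Rrad, Nfatc2, and Hspa5 are named here after their values were seen.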

How the results depend on the processing

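The 10 genes kept 9 values below 0 at 8 h against 0 h in LV under every alternative, and 8 or 9 in RV. The number called depended on the setting. In LV, where 1 was called, it was 0 at an adjusted p under 0.05, with transcript length offsets, and with all 18 libraries in 1 model, 3 with DESeq2 (Cacna1c, Cacnb2, Atp2a2), and 5 with the replicate block (Cacna1c, Cacnb2, Ryr2, Atp2a2, Slc8a1), or 3 (Cacna1c, Ryr2, Slc8a1) with the block and without LV 8 h number 3. The replicate numbers did not pair these LV groups. In RV, where 0 were called, it was 1 (Cacna1c) with length offsets, DESeq2, and all 18 libraries, 2 (Cacna1c, Cacnb2) with the replicate block, and 1 with the block and without RV 8 h number 3, an alternative chosen after seeing the data, as were all that left out number 3 of 8 h in both ventricles. Of these settings, shares of all genes are given only for RV with the block, where 14.5% fell against 7.17% in the plain fit. The counts under these alternatives are therefore not read as particular to the 10 genes. For 8 h against 4 h in LV DESeq2 called 2 where edgeR called 0. For LV against RV at 8 h the replicate block called 2 (Casq2, Camk2d) where the plain fit called 0, and 3 without number 3 of 8 h. The share of all genes called in the last of these fits is not given, and its 3 calls are not read as particular to the 10 genes. The block changed no other call among the 10 genes.

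Leaving out each library in turn gave 0 to 5 calls in LV and 0 to 5 in RV at 8 h against 0 h. The 5 came without LV 8 h number 2 (Cacna1c, Cacnb2, Ryr2, Atp2a2, Pln) and without RV 8 h number 2 (Cacna1c, Cacnb2, Hrc, Pln, Camk2d), and the median of the 10 log2 fold changes went from -0.61 up to -0.31 for LV and from -0.93 up to -0.18 for RV, the values nearest to 0 both coming without number 3 of 8 h. The cause was not tested. All other comparisons gave 0 calls in each such fit. Shares of all genes called are given above only for the fits without number 3 of 8 h. The 0 to 5 calls are therefore not read as particular to the 10 genes. Log2 fold changes at 8 h against 0 h changed sign in 0 of 170 values in LV and 1 of 170 in RV, that of Casq2 without RV 8 h number 3, and those near 0 at 4 h in 11 and 13 of 160, without a call. Ratios and shares gave 0 calls throughout.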

Other observations

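The genes whose log2 CPM was most like that of each member over the 18 libraries, among 15093 genes, are given as a description, since the libraries share storage time, ventricle, and number. Atp2a2 was most like Tbc1d16 (Pearson r = 0.987), Acadsb (0.984), and Wfs1 (0.977), and Pln like Paqr9 (0.983), Tmem65 (0.975), and Cat (0.974), the catalase gene. Ryr2 was most like Ckap5 (0.979), Klhl24 (0.977), and Ubr3 (0.974), and Cacna1c like Mtm1 (0.973) and Ubr2 (0.97). Casq2 was most like Habp4 (0.98), Rtn4ip1 (0.974), and Tmem38a (0.968), the last a cation channel of the sarcoplasmic reticulum. Slc8a1 was most like Pm20d2 (0.977), Usp13 (0.976), and Taco1 (0.972), Hrc like Coq8a (0.969), Pink1 (0.968), and Spg7 (0.966), and Cacnb2 like Ylpm1 (0.954), Ate1 (0.948), and Hspa12a (0.947). Camk2d was most like Akap6 (0.97), the scaffold mAKAP of the nuclear envelope, Cul5 (0.97), and Snx13 (0.969). Trdn had the least close neighbours, Rtf1 (0.861), Psme1 (0.817), and Olfr102 (0.808).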
